A study of Saccharomyces cerevisiae with 96 samples.

Results

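The change of the sugar response with evolution was taken for 12 strains of the budding yeast Saccharomyces cerevisiae. For each strain number the log2 level on xylulose minus that on glucose was formed once from the evolved columns and once from the wild type columns. The 12 evolved differences were then set against the 12 wild type differences without pairing, which used 48 of the 48 columns of the deposited table. A negative change means that the xylulose/glucose ratio of a gene was lower after evolution, and this can come from a lower level on xylulose, a higher level on glucose, or both.

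The evolved group held 1 population of each strain, propagated for 300 generations in rich medium (YP) with xylulose, and the wild type group held the 12 unevolved strains. The strains, in the order of their numbers 1 to 12, were YPS1009, T73, T7, Y12, YJM269, PW5, CLIB215, CLIB324, CBS7960, EC1118, BY4743 and SK1. All 4 combinations of state and sugar were grown in YP, with xylulose or with glucose (YPD) as the sugar, and the xylulose preparation also held xylose. Each combination was sequenced in 2 repeats, 96 libraries in all, and the table gives 1 column for each combination and strain, so the strain was the replicate and the spread between repeats is not known.

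Xylulose is a pentose that budding yeast can use. It is phosphorylated by the xylulokinase Xks1 and enters the pentose phosphate pathway. When amino acids run short inside the cell, uncharged tRNA activates the kinase Gcn2, translation of the GCN4 mRNA increases, and the Gcn4 protein binds promoters of amino acid synthesis genes at a short motif, TGACTC with its partner bases. Phosphate shortage acts through another route, in which the factor Pho4 binds CACGTG and turns on phosphatases and phosphate transporters. Genes for the a pheromone and for the alpha pheromone receptor are on in cells of mating type a, and haploid-specific genes are silent in cells that hold both mating types.

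Levels were deposited on the log2 scale of RPM, reads scaled to a common total of mapped reads in each library, and values under 10 RPM were blank. In 17 of the 48 columns the smallest values were spaced evenly, as whole reads would be, with 96.8% to 98.5% of the values under 60 RPM within 0.004 RPM of a whole read, which gave 253326 to 1114048 counted reads with a median of 680914, so that the floor of 10 RPM stood for 6.81 reads at the median depth. In the other 31 columns 2.33% to 37.3% did so, and their depth is not known. Averages of repeats of unequal depth would not be spaced in this way, so whether the 17 columns hold both repeats is not known. They were 1 evolved and 5 wild type columns on xylulose, and 4 evolved and 7 wild type columns on glucose. They were thus spread unevenly over the groups compared. The median number of genes with a value was 5066.5 in evolved and 5049.5 in wild type columns on xylulose, and 5147.5 in evolved and 4660 in wild type columns on glucose. LEU2 and URA3, which are deleted in BY4743, were blank in the wild type columns numbered 11 on both sugars. Among the evolved columns LEU2 was blank only in those numbered 7. URA3 had a value in 45 of the 48 columns, so it was not blank in both evolved columns numbered 7. Over 59 genes with strain-typical levels, all 12 evolved columns on xylulose matched best the wild type column that results when numbers 5 to 8 are exchanged with 9 to 12, and 4 of the 12, numbers 1 to 4, matched best under their own number. The unpaired comparison does not depend on these numbers, but each ratio does need both sugars of a number to belong together. Evolved glucose columns matched best the evolved xylulose column of their own number in 10 of 12 cases, with a correlation of at least 0.20 in all 12.

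The evolved columns on glucose also stood apart by their cell type markers. The summed level of 6 genes of mating type a was 739 to 4883 RPM in evolved columns 1 to 11 on glucose and 41.1 RPM in column 12. It was 12.1 to 47.2 RPM in the evolved columns on xylulose, 13.9 to 99.9 RPM in the wild type columns on xylulose and 11.7 to 87.3 RPM in the wild type columns on glucose. The markers were thus high in 11 of the 12 evolved glucose columns and at a low level in every other column, including those of the same evolved populations on xylulose. In bulk RNA a larger share of such cells and more RNA per cell cannot be told apart. What these transcripts contribute to the other changes on glucose was not tested, and for that reason each change is given below with its value on each sugar.

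Over the whole table the response to xylulose was smaller after evolution. The median log2 xylulose/glucose ratio of a strain was lowest at -0.12, 0.08 in the middle and 0.29 at the highest among the 12 evolved strains, against 0.14, 0.26 and 0.44 among the 12 wild type strains. Means were 0.08 ± 0.11 and 0.28 ± 0.09 (SD, n = 12 each), and the difference of -0.20 passed a 2-sided permutation test with 100000 resamples (p = 6e-05, adjusted over 3 measures p = 0.00018). After centring on this median, the median absolute log2 ratio was 0.59 ± 0.06 in evolved strains and 0.72 ± 0.09 in wild type strains, a difference of -0.13 (permutation test, p = 0.00026, adjusted p = 0.00039). Of the 12 evolved strains 4 lay below every wild type strain, so the groups overlapped. The difference of the median ratio was -0.11 with median-of-ratios scaling and -0.10 with genes valued in every column. That of the median absolute ratio was -0.13 and -0.12. Wild type numbers 4, 7, 10 and 12 had the fewest genes with a value on glucose (4389, 3935, 4448 and 4157). Their median ratios were the highest of the wild type (0.44, 0.43, 0.30 and 0.39). What depth contributed to these measures was not tested.

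Evolved strains also resembled each other more. Pearson's r between a strain's ratios and the mean of the other 11 strains of its group was 0.702 ± 0.0618 in the evolved and 0.600 ± 0.131 in the wild type strains, a difference of 0.102 (SD, n = 12 each, permutation test, p = 0.0136, adjusted p = 0.0136). The lowest value was 0.606 among evolved and 0.273 among wild type strains, and a single evolved strain lay above the whole wild type range. With only the genes that had a value in every column the difference in r was 0.0825 and its adjusted p in the permutation test was 0.0546. Without wild type 1, which had the lowest r, the difference was 0.0705 (permutation test, adjusted p = 0.0436). What depth or the averaging of repeats contributed to r was not tested.

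**Figure D1:**
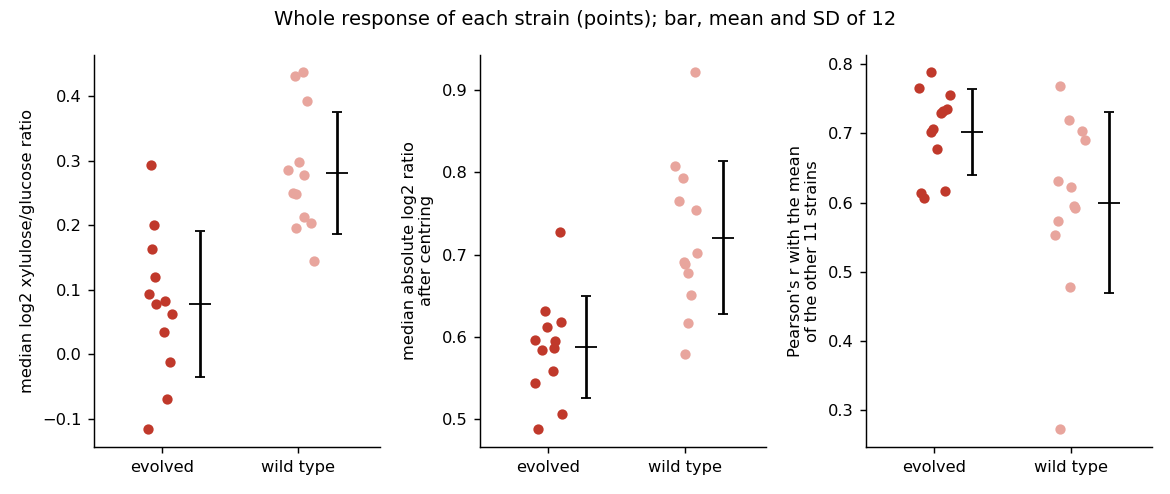
Measures of the whole response, with evolved strains on the left of each panel and wild type strains on the right. Each point is a strain and the bar gives the mean and SD of 12. The evolved means were lower for the median log2 ratio (0.08 against 0.28) and for the median absolute log2 ratio (0.59 against 0.72), and higher for the correlation with the group (0.702 against 0.600).

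Gene by gene, limma called 285 of 5129 genes at an adjusted p under 0.05. The ratio was lower after evolution for 278 genes, 5.42% of those tested, and higher for 7 genes, 0.136%. The median change of all genes was -0.20, so that the calls are counted against a shifted table. With each strain centred on its own median the split was 44 higher and 131 lower. With the strain number as a block it was 1 higher and 262 lower.

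The change lay on either sugar. The median difference between evolved and wild type over all genes was -0.02 on xylulose and 0.17 on glucose. Among the 278 genes with a lower ratio, 251 were both lower on xylulose and higher on glucose, and the size of the difference was larger on glucose for 220 and larger on xylulose for 58. Measured from the medians of all genes these counts were 204 and 74. When evolved and wild type were compared on xylulose alone, limma called 80 genes lower (1.56%) and 1 higher (0.0195%). On glucose alone it called 117 higher (2.28%) and 5 lower (0.0975%). These comparisons on 1 sugar were chosen after the data were seen. They use the same columns as the ratio and are not independent of it.

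**Figure D2:**
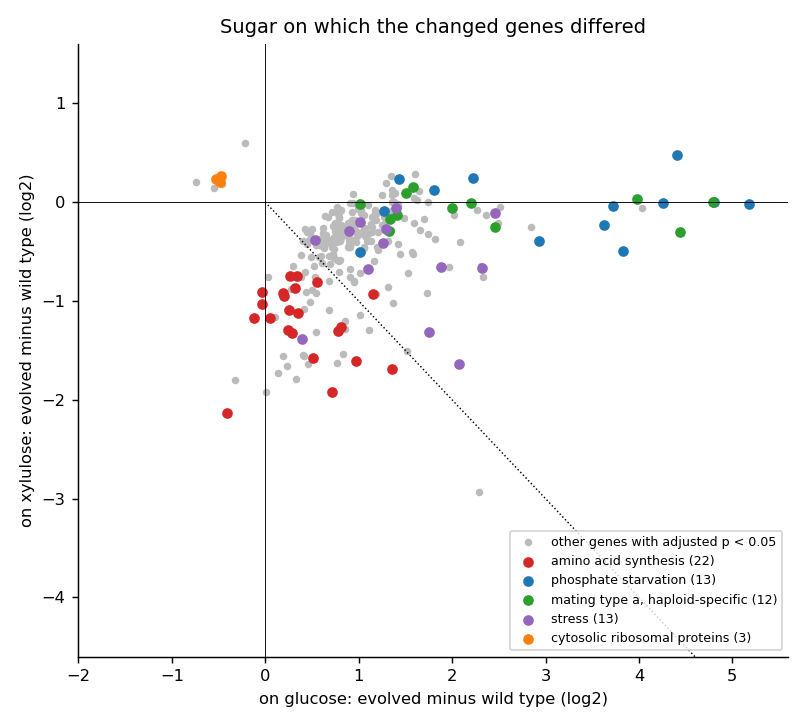
Evolved minus wild type on glucose (x axis) and on xylulose (y axis), both log2, for the 285 called genes. The dotted line marks equal size with opposite sign. Amino acid synthesis genes lie low along the y axis, while phosphate starvation and mating type genes extend along the x axis at about 0 on xylulose.

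The amino acid synthesis genes were called mainly by their level on xylulose. Of the 99 genes tested in 8 pathway lists, 22 had a lower ratio after evolution and 0 a higher one, against 5.42% and 0.136% of all genes. The median change over the 99 genes was -0.70, with a median difference of -0.68 on xylulose and 0.05 on glucose. The difference was larger on xylulose in 21 of the 22 called genes. On xylulose alone 32 of the 99 genes were called lower and 0 higher, against 1.56% and 0.0195% of all genes. With each strain centred on its median 11 of the 99 genes were called lower for the ratio, and with a pseudocount of 1 also 11. Numbers 1 to 4 alone gave 1 call with a median change of -0.80.

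Upstream of 17 of the 22 called pathway genes the core of the Gcn4 motif was found, and 4 of these genes are shown because each stands for another pathway. The sequences were read from the R64 reference genome within 300 bases before the start codon, on the strand of the gene, with TGACTC or its reverse complement GAGTCA in capitals. The windows lie at chrVIII:141564-141593 (ARG4, minus strand), chrIX:420853-420882 (LYS1, minus strand), chrIII:68515-68544 (HIS4, minus strand) and chrXIV:426838-426867 (LEU4, minus strand). The first base in capitals lies 179 (ARG4), 134 (LYS1), 199 (HIS4) and 101 (LEU4) bases before the start codon.
ARG4: ttagtagatgaaTGACTCactttttggata
LYS1: ttcagcgacaaaGAGTCAtaaagtcatcct
HIS4: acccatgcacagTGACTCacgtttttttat
LEU4: cttacgtgtaagTGACTCagttctttcaaa

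On both strands TGACTC was found in 8.09% of the 5019 tested genes with a full window. It was found in 50.5% of the 99 tested pathway genes, called or not, and in 77.3% of the 22 called ones. Of the 58 called genes with the larger difference on xylulose it was found in 55.2%, and of the 218 with a window and the larger difference on glucose in 8.26%. The 7-base form TGACTCA, which contains TGACTC, was found in 44.8% and 2.29% of these same genes, against 2.67% of all. Among the 37 genes with the larger difference on xylulose that are in none of the pathway lists, 40.5% held TGACTC. These shares describe letters in a window and are no test of binding.

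Arginine synthesis had the lowest median change among the 8 pathways. Of 10 genes 6 were called lower, with a median change of -1.52, -1.27 on xylulose and 0.32 on glucose. ARG4 (YHR018C, chromosome VIII, 140011 to 141402) encodes argininosuccinate lyase, the last enzyme of the pathway. Its level on xylulose was 55.6 at the lowest, 241 in the middle and 840 RPM at the highest among evolved columns, against 216, 974 and 1288 RPM in wild type columns. On glucose it was 58.8, 215 and 358 RPM in evolved columns, and had a median of 123 and a highest value of 661 RPM in wild type columns. The wild type strains thus held several times more ARG4 RNA on xylulose than on glucose, while the evolved strains held similar amounts on both. The log2 ratio was 0.19 after and 2.84 before evolution, a change of -2.64 (SE 0.53, limma adjusted p = 0.00345), and 5 of 12 evolved ratios lay below every wild type ratio.

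CPA1 (YOR303W), the small subunit of the carbamoyl phosphate synthetase of arginine synthesis, separated the groups more fully. Its log2 ratio was -0.87, 0.50 and 2.70 (lowest, median, highest) in evolved strains and 1.23, 2.61 and 4.28 in wild type strains, so that 10 of 12 evolved strains lay below the whole wild type range. The change was -2.07 (SE 0.38, limma adjusted p = 0.00110). ARG5,6 (YER069W), which encodes the acetylglutamate kinase and reductase, changed by -2.09.

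In lysine synthesis 5 of 9 genes were called lower, with a median change of -1.09, and 2 with each strain centred on its median. LYS1 (YIR034C, chromosome IX, 419615 to 420736) encodes saccharopine dehydrogenase, the last step. On xylulose it had 35.8, 67.7 and 125 RPM (lowest, median, highest) in evolved columns and 69.3, 218 and 561 RPM in wild type columns. On glucose it had 27.0, 56.2 and 169 RPM in evolved columns. The wild type columns on glucose had a median of 31.4 and a highest value of 82.0 RPM, with 2 columns blank. Its change of -2.58 (SE 0.42, limma adjusted p = 0.000352) consisted of -1.61 on xylulose and 0.97 on glucose, and 8 of 12 evolved ratios lay below every wild type ratio. LYS20 and LYS21, homocitrate synthases that catalyse the first step and share sequence, changed by -2.08 and -1.37, and LYS2, the aminoadipate reductase, by -1.23.

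Of 7 genes of histidine synthesis 3 were called lower, and the median difference of the list was -1.03 on xylulose and -0.29 on glucose. On glucose the called genes differed in sign, with 0.28 for HIS1, -0.04 for HIS7 and -0.41 for HIS4, and on xylulose all were lower, by -1.32 for HIS1, -1.03 for HIS7 and -2.14 for HIS4. The call of HIS7 held in 5 of 24 fits with 1 strain left out. HIS4 (YCL030C, chromosome III, 65934 to 68333), a multifunctional enzyme of the pathway, had 53.6, 135 and 401 RPM on xylulose in evolved columns (lowest, median, highest) and 225, 630 and 1330 RPM in wild type columns. On glucose the evolved columns had 187, 446 and 1270 RPM and the wild type columns 270, 555 and 1747 RPM. After evolution HIS4 was lower on xylulose than on glucose in 12 of 12 strains, whereas it was higher on xylulose in 7 of 12 wild type strains. The log2 ratio was -1.49 after and 0.24 before evolution (change -1.73, SE 0.40, limma adjusted p = 0.00960).

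Aromatic amino acid synthesis had 5 of 14 genes called lower, among them ARO9, an aminotransferase, with a change of -2.08, ARO3, a DAHP synthase, with -1.15, TRP3 with -1.11 and TRP5, tryptophan synthase, with -1.01. The call of TRP3 held in 7 of 24 fits that each left out 1 strain. Branched-chain synthesis had 1 of 12, LEU4 (YNL104C), the main isopropylmalate synthase. LEU4 stayed higher on xylulose than on glucose in 12 of 12 evolved strains, with a log2 ratio of 1.42 against 2.76 in the wild type (change -1.34, SE 0.30, limma adjusted p = 0.00892). Its rise on xylulose was therefore smaller after evolution and still present. MET28, a cofactor of sulfur amino acid gene control, was the single call of 25 sulfate and methionine genes (-1.19), and HOM2 the single call of 11 threonine, serine and glycine genes (-1.05). With 1 strain left out these calls held in 9 and 11 of 24 fits. No call was made among 11 genes of glutamate, glutamine, proline and asparagine synthesis, whose median change was -0.50. Among all genes 5.42% were called lower, so the lists with 1 call or none lie near that share.

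**Figure D3:**
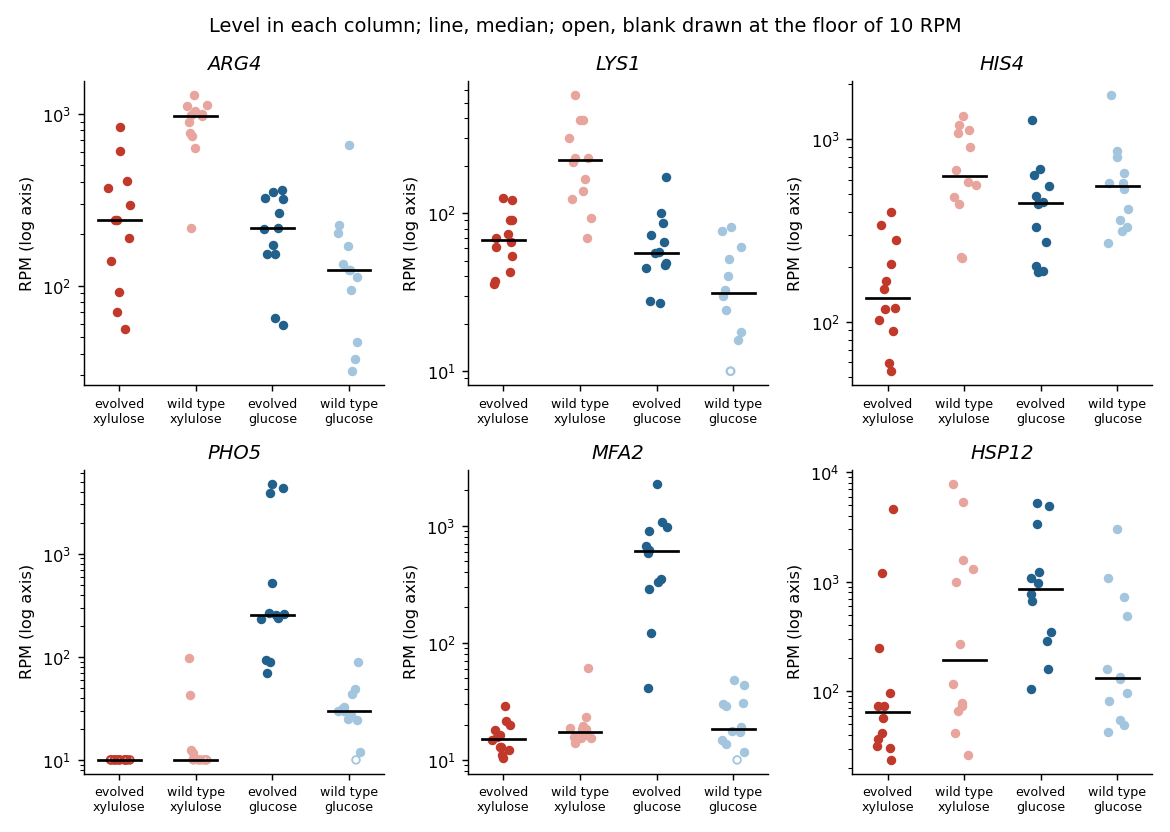
Level of 6 genes in each of the 48 columns, in RPM on a log axis, with evolved columns left of wild type columns for each sugar. Lines are medians, and open points are blanks drawn at 10 RPM. ARG4, LYS1 and HIS4 were lower in evolved columns on xylulose (medians 241, 67.7 and 135 RPM, against 974, 218 and 630 RPM). MFA2 and HSP12 were higher in evolved columns on glucose (medians 602 and 867 RPM, against 18.5 and 133 RPM), as was PHO5 (median 256 RPM, against a highest wild type value of 89.4 RPM).

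The mRNA of GCN4 itself (YEL009C) moved little. It had 1842, 2071 and 2616 RPM (lowest, median, highest) in evolved columns on xylulose and 2238, 2625 and 3531 RPM in wild type columns on xylulose. On glucose it had 1018, 1145 and 1548 RPM in evolved and 971, 1297 and 1658 RPM in wild type columns. It was higher on xylulose in 12 of 12 strains both after and before evolution, with log2 ratios of 0.85 and 1.07. Its change of -0.23 (SE 0.17) did not pass (limma adjusted p = 0.456). On xylulose alone it was called lower, by -0.33 (limma adjusted p = 0.0257). None of the 12 genes of GCN4 and its upstream control passed for the ratio, with a median change of 0.16. None of 18 aminoacyl-tRNA synthetases did either, with a median of -0.06. Among all genes 5.42% were called lower and 0.136% higher.

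The largest change of a single gene was that of SNZ1 (YMR096W, chromosome XIII, 458408 to 459301), which acts in vitamin B6 synthesis and has the near copies SNZ2 and SNZ3. On xylulose SNZ1 had 18.6, 31.7 and 55.3 RPM (lowest, median, highest) in evolved columns and 25.7, 323 and 1809 RPM in wild type columns. On glucose it had 29.2, 110 and 487 RPM in evolved columns, against a median of 19.4 and a highest value of 62.6 RPM in wild type columns, 4 of which were blank. The order of the sugars was thus opposite in the groups, with SNZ1 higher on xylulose in 10 of 12 wild type strains and in 2 of 12 evolved strains. The change was -5.22 (SE 0.66, limma adjusted p = 6.05e-06). SNO1 (YMR095C), its divergently transcribed neighbour and partner in the same enzyme, changed by -2.37 (SE 0.39, limma adjusted p = 0.000353).

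Phosphate starvation genes changed on glucose. Of 18 listed genes 17 passed the filter on low values. Of these 13 were called lower, against 5.42% of all genes, several of them with few values outside the evolved glucose columns. Without the filter 12 of the 18 were called, with a median change of -1.83, and numbers 1 to 4 alone gave 2 calls. The VTC genes and PHO86, PHO81, PHO8 and PHO4 had a value in nearly every column. On glucose alone 12 genes were called higher, against 2.28% of all genes, and on xylulose alone 0 were called. The summed level of the list on glucose was 2250 to 16286 RPM in evolved columns 1 to 11 and 1356 RPM in column 12, against 729 to 1457 RPM in the wild type columns. Evolved column 12 therefore lay within the wild type range, and the others lay above it.

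Secreted acid phosphatases and transporters led the list. PHO5 (YBR093C, chromosome II, 429548 to 430951) was blank in 12 of 12 evolved columns on xylulose, and in wild type columns on xylulose it had a highest value of 97.1 RPM with 6 blank. On glucose it had 69.0, 256 and 4788 RPM (lowest, median, highest) in evolved columns, against a highest value of 89.4 RPM with 1 blank in wild type columns. The change was -4.33 (SE 0.69, limma adjusted p = 0.000258). PHO12 (YHR215W) changed by -5.19 and PHO11 (YAR071W) by -3.85, and since both are near copies their reads cannot be told apart with certainty. Of the phosphate transporters, PHO84 (YML123C) had 71.9, 492 and 1674 RPM on glucose in evolved columns, against a median of 17.5 RPM in wild type columns, and PHO89 (YBR296C) was blank in all evolved columns on xylulose. PHM6 (YDR281C) and PHM8 (YER037W), of the same regulon, changed by -4.80 and -3.32. As most of these genes sat at the floor on xylulose, the sizes depend on the floor.

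CACGTG was found within 300 bases before the start codon in 53.8% of the 13 called phosphate genes. The share was 47.1% of all 17 tested genes of the list and 3.67% of all genes with a window. As the list was drawn up as the phosphate regulon, these shares are no test of the change. Windows of PHO5 (chrII:431187-431216, minus strand) and PHO12 (chrVIII:551804-551833, plus strand) are shown for the shared motif, in capitals. The first base of the motif lies 253 (PHO5) and 283 (PHO12) bases before the start codon.
PHO5: ccttggcactcaCACGTGggactagcacag
PHO12: tcttggcgttcaCACGTGggtttaaaaagg

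Genes of mating type a were high in the evolved columns on glucose, and most of them passed the filter on low values largely through those columns. AGA2 had a value in 13 of 48 columns, STE2 in 17 and MFA1 in 20, of which 11 each were evolved columns on glucose. The counts of calls in this list are therefore no support for the change, and the levels are given instead. MFA2 (YNL145W), which encodes the a pheromone, had 41.1, 602 and 2280 RPM (lowest, median, highest) on glucose in evolved columns, against a median of 18.5 and a highest value of 47.7 RPM in wild type columns. On xylulose it had 10.4, 15.2 and 28.6 RPM in evolved and 13.9, 17.4 and 61.1 RPM in wild type columns. The change was -4.75 (SE 0.54, limma adjusted p = 2.36e-06), and 11 of 12 evolved ratios lay below every wild type ratio. The pheromone gene MFA1 changed by -4.79, the receptor gene STE2 by -3.95 and AGA2, an agglutinin subunit, by -2.21.

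Haploid-specific genes were admitted to the test in the same way, and 6 of the 8 listed passed the filter. STE18 (YJR086W), the gamma subunit of the pheromone G protein, had a value in 11 of 12 evolved columns on glucose, with a median of 77.5 RPM, and in 3 of 12 wild type columns on glucose. It changed by -2.71 (SE 0.36). Since the filter admitted it largely through the evolved glucose columns, its call is no support for the change. At a mean of at least 50 RPM 0 genes of this list were tested. GPA1, the alpha subunit, changed by -1.54, the regulator RME1 by -1.62 and the scaffold STE5 by -1.50. When the sugars were not paired within a number, 2 genes of this list were called. Of 4 genes of mating type alpha 0 were called, and their median change was 0.01. Their summed level stood out in column 5 of the evolved group, at 427 RPM on xylulose and 637 RPM on glucose, and in column 9 of the wild type group, at 1130 RPM on xylulose and 1548 RPM on glucose. Over the 59 genes with strain-typical levels, evolved column 5 on xylulose matched best wild type column 9, so these need not be different strains.

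**Figure D4:**
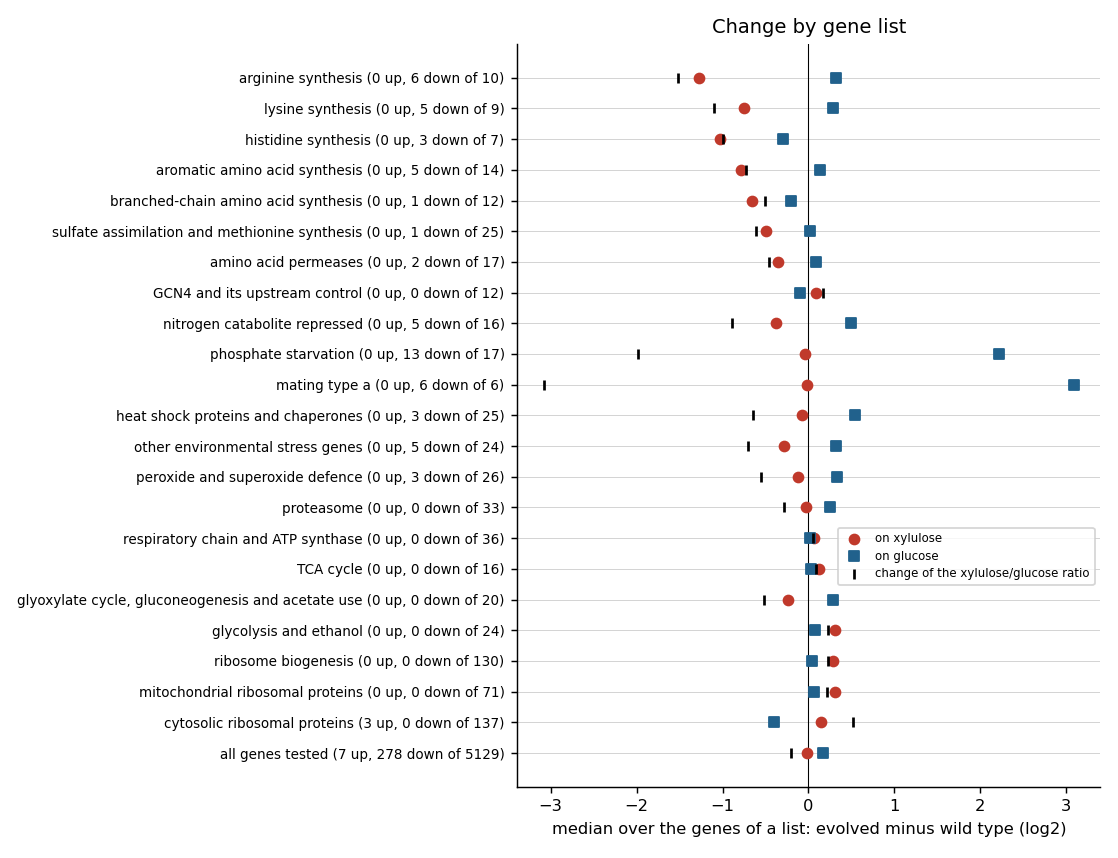
Median over the genes of each list of the difference between evolved and wild type on xylulose (circles) and on glucose (squares), and of the change of the ratio (bars), all log2. Counts of called genes and genes tested stand beside each name. The amino acid pathways lie to the left on xylulose (arginine -1.27), phosphate starvation and mating type a, whose members passed the filter largely through the evolved glucose columns, lie to the right on glucose, and cytosolic ribosomal proteins lie to the left on glucose (-0.40).

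Of 94 stress genes in 4 lists 13 were called lower and 0 higher, against 5.42% and 0.136% of all genes. The median change was -0.53, and 19 of the 94 genes lay above 0. When the sugars were not paired within a number 5 were called, and 8 with each strain centred on its median. HSP12 (YFL014W), a small membrane heat shock protein, had 106, 867 and 5207 RPM (lowest, median, highest) on glucose in evolved columns and 42.6, 133 and 3058 RPM in wild type columns. On xylulose it had 23.6, 65.0 and 4658 RPM in evolved and 26.3, 192 and 7881 RPM in wild type columns. Its levels overlapped widely on each sugar, and neither comparison on 1 sugar passed, whereas the change of the ratio did (-3.71, SE 0.89, limma adjusted p = 0.0123). DDR2, a stress gene of unknown function, changed by -3.07, SIP18, a hydrophilin that overlaps another reading frame, by -2.98, and the Hsp70 genes SSA4 and SSA3 by -1.68 and -1.22.

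Oxidant defence was part of this group. TRX2 (YGR209C), the stress-inducible cytosolic thioredoxin, had a log2 ratio of -1.35, -0.16 and 0.71 (lowest, median, highest) in evolved strains and 0.27, 1.02 and 1.74 in wild type strains, and 9 of 12 evolved strains lay below the wild type range. Its change was -1.19 (SE 0.25, limma adjusted p = 0.00471), and those of the peroxiredoxin AHP1 and of the regulator YAP1 were -1.46 and -0.91. Of the trehalose and glycogen genes 2 of 19 were called, both trehalases (ATH1 -1.78, NTH2 -1.57), while the median of the list was 0.02. Taking strain numbers 1 to 4 alone, which was added once the data had been looked at, the median change of the 94 stress genes was 0.02 and 0 were called.

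Genes under nitrogen catabolite repression, which serve the use of poor nitrogen sources, had 5 of 16 called lower, against 5.42% of all genes. Their median change was -0.89, -0.38 on xylulose and 0.49 on glucose. When the sugars were not paired 2 were called, and at a mean of at least 50 RPM 0 of 6. DAL3 (YIR032C), of allantoin breakdown, changed by -2.25 (SE 0.36, limma adjusted p = 0.000292), with 44.1 ± 25.1 RPM in evolved and 13.6 ± 6.28 RPM in wild type columns on glucose (SD, n = 12 each). The urea transporter DUR3, the ammonium permease MEP1 and the activator GAT1 changed by -1.75, -1.48 and -1.39, and the call of GAT1 held in 11 of 24 fits with 1 strain left out. The general amino acid permease GAP1 (YKR039W) had a median of 127 and a highest value of 555 RPM on glucose in evolved columns, and a highest value of 31.6 RPM in wild type columns with 7 blank. It changed by -3.11 (SE 0.63, limma adjusted p = 0.00372), of which 2.85 lay on glucose. BAP2, a permease of branched-chain amino acids, changed by -1.20 with the larger difference on xylulose (-0.87), so the 2 called permeases differed in the sugar that carried the change.

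Translation genes stood at the other end. The 137 cytosolic ribosomal protein genes had a median change of 0.52, against -0.20 for all genes, and all 137 lay above that median. The difference was 0.14 on xylulose and -0.40 on glucose. With numbers 1 to 4 alone the median change was 0.28. The summed level of the 137 genes on glucose was 85320 RPM in evolved column 8, 147380 RPM in column 10 and 174620 RPM in column 6, against 215230 RPM in the lowest wild type column, and without evolved 8 the median change was 0.39 with 1 call. Only 3 of them were called higher, RPL10, RPL13A and RPS3, against 0.136% of all genes. This count was 21 with each strain centred on its median and 0 with the strain number as a block. RPL10 (YLR075W, chromosome XII, 282927 to 283592), which has no paralog, had 2595, 3448 and 3972 RPM (lowest, median, highest) on xylulose in evolved columns and 2489, 2982 and 3498 RPM in wild type columns. On glucose it had 814, 2065 and 2851 RPM in evolved columns and 2042, 2624 and 3354 RPM in wild type columns. Its ratio was above the whole wild type range in 11 of 12 evolved strains (change 0.68, SE 0.19, limma adjusted p = 0.0289). RPS3 changed by 0.76 and RPL13A, one of a pair of paralogs whose reads may be shared, by 0.73. Their calls held in 7 (RPS3) and 9 (RPL13A) of 24 fits with 1 strain left out.

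The other 4 genes with a higher ratio were MIS1, EFT2, IMD4 and ARD1. MIS1 (YBR084W), the mitochondrial C1-tetrahydrofolate synthase, had 103, 190 and 313 RPM (lowest, median, highest) on glucose in evolved columns and 214, 306 and 427 RPM in wild type columns, and changed by 0.95 (SE 0.26, limma adjusted p = 0.0260). EFT2 (YDR385W), elongation factor 2, shares its coding sequence almost entirely with EFT1 and changed by 0.65. IMD4, an IMP dehydrogenase of guanine nucleotide synthesis, changed by 0.82 and ARD1, an acetyltransferase of nascent proteins, by 0.69, with calls that held in 4 (IMD4) and 10 (ARD1) of 24 fits with 1 strain left out. Ribosome biogenesis (130 genes), mitochondrial ribosomal proteins (71) and translation factors (30) had median changes of 0.23, 0.21 and 0.21, and EFT2 was their single call. For ribosome biogenesis numbers 1 to 4 alone gave a median of 0.06.

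In central carbon and glycerol metabolism 3 of 149 tested genes were called lower and 0 higher, against 5.42% and 0.136% of all genes. At these shares the absence of a call in a short list says little. No call was made among 16 genes of the TCA cycle, 36 of the respiratory chain and ATP synthase, 24 of glycolysis and ethanol formation, 13 hexose transporters or 15 glucose-repressed genes of sugar use. Their median changes were 0.09, 0.05, 0.23, 0.21 and 0.03. Of 20 genes of the glyoxylate cycle, gluconeogenesis and acetate use 0 were called too, but their median change was -0.51, with -0.24 on xylulose and 0.28 on glucose. The TCA cycle genes had a median log2 ratio of 1.89 in evolved and 1.80 in wild type strains, and the respiratory genes 1.88 and 1.80, so their rise on xylulose was of like size in both groups. Among 15 genes of xylulokinase and the pentose phosphate pathway, TAL1 (YLR354C), transaldolase, changed by -0.70 (SE 0.21, limma adjusted p = 0.0433) and its paralog NQM1 by -2.12. The call of TAL1 held in 7 of 24 fits with 1 strain left out. TAL1 was higher on xylulose in 10 of 12 evolved and 12 of 12 wild type strains. XKS1 (YGR194C) had a median of 54.4 RPM in evolved and 43.7 RPM in wild type columns on xylulose, and of 64.5 RPM in evolved and 59.4 RPM in wild type columns on glucose. Its change of -0.34 (SE 0.35) did not pass (limma adjusted p = 0.608).

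Other lists held few or no calls, where 5.42% of all genes were called lower and 0.136% higher. Of 20 iron and copper uptake genes the siderophore transporter SIT1 was called (-1.52, in 8 of 24 fits with 1 strain left out), and of 10 glycerol genes the dihydroxyacetone kinase DAK1 (-0.77). No gene was called among 8 of heme synthesis, whose median change was 0.47 and whose members all lay above the median of all genes, nor among 23 of ergosterol synthesis (-0.17), 33 of the proteasome (-0.29), 12 of purine synthesis (-0.27) or 14 of the vacuolar ATPase (0.09). Among 4131 tested genes in no list, 205 were called lower and 2 higher, against 5.42% and 0.136% of all genes. CMC4 (YMR194C-B), a mitochondrial intermembrane space protein, had the largest change of those with a value in at least 24 columns, -3.09 (SE 0.48, limma adjusted p = 0.000192). Its median was 78.9 RPM in evolved and 13.9 RPM in wild type columns on glucose, and 27.7 RPM in evolved and 43.6 RPM in wild type columns on xylulose. BMH2, a 14-3-3 protein named after its values were seen, had every evolved ratio (-0.81 to 0.19) below every wild type ratio (0.21 to 1.45).

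**Figure D5:**
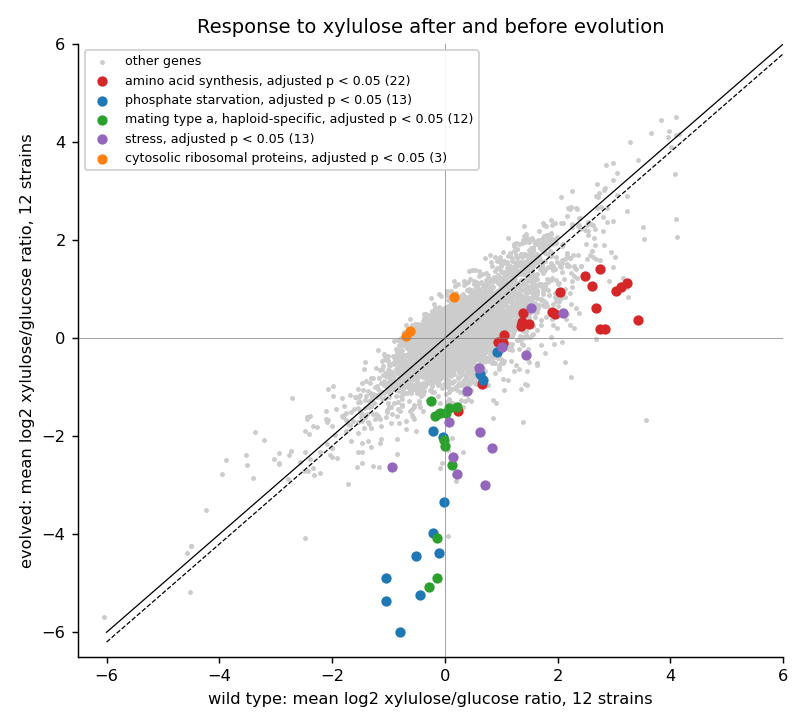
Mean log2 xylulose/glucose ratio of each gene in the 12 evolved strains (y axis) against the 12 wild type strains (x axis). The solid line marks equal ratios and the dashed line a change equal to the median of all genes, -0.20. Called amino acid synthesis genes such as ARG4 and LYS1 lie at high wild type ratios and evolved ratios nearer to 0. HIS4 and HIS1 instead lie at 0.24 and 0.66 in the wild type and at -1.49 and -0.94 after evolution. Mating type genes lie near 0 in the wild type and far below 0 after evolution. Called phosphate starvation genes also lie lower after evolution. In the wild type some of these lie near 0 (PHO89, -0.11) and others below it (PHO5, -1.04, and PHO12, -0.80).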

How the data were processed

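RNA sequencing of 12 wild type and 12 evolved strains on xylulose and glucose was used. Single reads were aligned by the authors with Bowtie to SGD R64, rRNA reads were dropped, PCR copies were corrected by molecular identifiers and libraries were brought to a common total. The deposited values are log2 RPM of 6701 genes in 48 columns. Repeats were averaged according to the methods, but the spacing of low values in 17 columns is that of a single library. The 84458 blank cells were set to the floor of 10 RPM. The test took the 5129 genes whose mean reached 10 RPM.

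Differences per strain number were compared by limma 3.58.1 in R 4.3.3 (moderated with a mean trend), without pairing, with Benjamini-Hochberg adjustment over all tested genes and a threshold of 0.05. Values are not counts, so no count model was used. The procedure was tested on simulated data. Whole-response measures were compared by permutation (SciPy 1.17.1, Python 3.11.15). Members and the 49 gene lists were chosen with earlier results of these data known. Named genes were the 10 largest changes each way among called genes with a value in at least 24 columns, up to 4 called members per list (with none, the 2 highest), GCN4, XKS1, LEU2, URA3 and cell type markers. One such gene is left out of the text. Of the genes 5953 matched the R64 annotation and 748 did not. How reads shared by gene copies were counted is not given in the sources used here, nor is a batch. Same-numbered evolved and wild type differences correlated above 0.1 in 1 of 12 pairs as labelled and in 7 of 12 with numbers exchanged, so the numbers did not pair the strains in these data, although the labels give the same strain. Alternatives were block fits, unpaired sugars, other scalings, pseudocounts, filters, robust shrinkage and each strain left out.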

Additional observations from a re-analysis of the deposited data

Results flagged for a closer look

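The sugar response differed between the evolved and the wild type strains by a test of the difference itself in 285 genes, and in 3 measures of the whole response. These were the median log2 xylulose/glucose ratio of a strain (-0.20, evolved minus wild type), the size of its response (-0.13) and its likeness to the group (0.102). Groups of 12 strains were not screened for single outlying strains.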

How the results depend on the processing

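The count of 285 genes lay between 190 and 330 when each strain was left out in turn, the lowest without evolved 8 and the highest without evolved 12. Genes with a higher ratio lay between 2 and 15 and those with a lower ratio between 188 and 321. The likeness of strains lay between 0.0705 and 0.124. Same-numbered strains did not deviate together, and a replicate block by strain number gave 1 higher and 262 lower genes, and one with evolved numbers 5 to 8 and 9 to 12 exchanged gave 4 and 306. Without pairing the sugars within a number there were 169 (162 lower). Centring each strain on its median gave 175 (44 higher, 131 lower), a pseudocount of 1 gave 160 (153 lower), and genes with a value in all columns gave 104 (13 higher, 91 lower). Higher genes numbered 21 with median-of-ratios scaling, 11 and 32 with pseudocounts of 10 and 30, 24 without a filter and 24 at a mean of at least 50 RPM. Numbers 1 to 4 alone, chosen after the data were seen, gave 12, all lower, and 0 higher. At an unadjusted p under 0.05 limma then had 495 genes. The xylulose columns alone gave 81 (1 higher, 80 lower) and the glucose columns alone 122, with 117 in the direction of a lower ratio. The likeness lost its call with genes valued in every column (0.0825). Of 65 called genes picked by the naming rule, 24 lost the call without pairing of sugars, 18 with centring, 16 with a pseudocount of 1, 14 with the block and 57 with numbers 1 to 4 alone. Of the 65 genes that the naming rule picked, 18 lost the call in at least 1 fit without a strain, among them LYS2 (held in 22 of 24), ARO3 (18), NTH2 (19), SSA4 (15), DAK1 (15), MIS1 (23) and RPL10 (23). The causes were not tested. No called value changed sign. Changes near the floor of 10 RPM are limited by depth, and the size of a change there depends on the floor.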
